A study of Mus musculus with 35 samples.

Results

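Transcribed unprocessed pseudogenes were examined across 6 adult mouse tissues. Members were the genes with the biotype transcribed_unprocessed_pseudogene in the study's combined annotation whose symbol does not end in -ps with an optional number, and there were 182 of them among 55356 annotated genes. A further 83 genes of the same biotype carry a -ps symbol and were not counted as members. The rule uses the annotation and no measured value, and it was set with earlier results of these data known. No read was assigned to 32 members in any library, 55 members gathered fewer than 10 counts in all libraries together, and 94 members passed the filter on low counts and were tested together with all other genes, 29911 genes in all.

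An unprocessed pseudogene is a copy of a gene that arose when a stretch of genomic DNA was duplicated and that later lost its reading frame through stop codons, frameshifts or missing exons. Because the DNA itself was copied, such a pseudogene can keep introns, promoter and neighbourhood of its source, whereas a processed pseudogene is a messenger RNA copied back into the genome without introns. The biotype "transcribed" is given by annotators where transcript evidence covers the locus. Clusters of such copies are found in families that duplicate often, for example zinc finger genes, olfactory receptors, carboxylesterases and class I genes of the major histocompatibility complex (MHC).

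The libraries were strand-specific total RNA-seq libraries, depleted of ribosomal RNA, from adult C57BL/6J mice. The 10 groups were female brain, male brain, female cerebellum, male cerebellum, female heart, male heart, female colon, male colon, ovary and testis, with 3 libraries each except male heart with 2, so 29 libraries in all. Ovary came from females and testis from males, so gonad and sex cannot be told apart there. Per library 11742417 to 36194255 reads were assigned to genes (median 24403774), and levels are given as FPKM, reads per kilobase of exon scaled to 1000000 assigned reads of the library. Nothing in the labels says whether replicates are separate animals, so P values measure the spread between these libraries, which may be technical. The labels also give each library a numeric code whose meaning is not stated, and libraries of several tissues share its first digit. The last digit mostly follows the tissue, and whether the first digit marks an animal is not stated. The main fit does not use the code, so any sharing of animals between tissues is left out of it. A fit with that digit as a block within each sex, with the 1-digit codes as 1 level, called 37 members in testis in place of 57, and 19 of the members whose call was lost had a P over 0.9.

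The tissue labels were checked with 24 marker genes, and 22 of them were highest in their own tissue in every library, the exceptions being Neurod2 and Calb2, which overlapped between brain and cerebellum. Female heart replicate 3 stood apart from the other hearts, with a median correlation to its own tissue of 0.947 against 0.971 to 0.995 in all other libraries and a summed level of the 3 fat markers of 3078 FPKM against 360 to 495 FPKM in the other hearts. Female colon replicates 1 and 3 and male colon replicate 3 held summed testis markers of 21.7, 14.4 and 10.3 FPKM, against at most 1.6 FPKM in the other colon libraries and 16978 to 20360 FPKM in testis. For several heart and colon tests of named members the value without these 4 libraries is given as well.

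Of the 182 members, 157 aligned over at least 200 bases to the coding sequence of a protein-coding gene, taken here as the closest coding gene, and these were 112 different genes. The median identity was 91.8%, from 67.5% to 100%. In the best alignment 85 members carried a stop codon in the aligned coding frame and 101 a gap that by its own length breaks the frame. At least 1 of these was found in 127 members. Some of the gaps may fall at exon junctions, and gaps were counted singly, also where others nearby restore the frame. The stretches below show 6 such changes in members whose levels are described further on. Each stands beside the same stretch of its closest coding gene, so that the change can be read. Sequences are from the GENCODE M21 transcripts on mouse build GRCm38 (mm10), 5′ to 3′ on the strand of the gene. Exon numbers of members count all exons of the transcript, and those of the coding genes count coding exons only.

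In Gm31663 (chr7:92979900-92979960, plus strand, exon 1), a copy of Prcp (chr7:92905138-92905200, plus strand, exon 3), the capitals mark a triplet of the pseudogene that is a stop in the aligned frame of Prcp, and codon 121 of Prcp, with 55 of 63 alignment columns identical. Gaps leave 61 bases in the Gm31663 stretch against 63 in that of Prcp.
Gm31663: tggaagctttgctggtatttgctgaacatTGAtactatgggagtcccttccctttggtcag
Prcp: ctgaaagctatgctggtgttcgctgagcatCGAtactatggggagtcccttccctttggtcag
In 2610005L07Rik (chr8:20410471-20410520, minus strand, exon 1), a copy of Cdh11 (chr8:102679726-102679788, minus strand, exon 1), they mark a stop triplet and codon 28 of Cdh11, with 47 of 63 columns identical and 50 bases in the pseudogene stretch.
2610005L07Rik: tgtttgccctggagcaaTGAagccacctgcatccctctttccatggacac
Cdh11: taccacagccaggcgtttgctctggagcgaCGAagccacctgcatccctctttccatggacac
In Gm8995 (chr7:106504769-106504831, minus strand, exon 1), a copy of Gvin1 (chr7:106158355-106158417, minus strand, exon 1), they mark a stop triplet and codon 2292 of Gvin1, with 57 of 63 columns identical.
Gm8995: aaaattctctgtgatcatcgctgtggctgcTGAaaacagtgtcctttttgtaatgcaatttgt
Gvin1: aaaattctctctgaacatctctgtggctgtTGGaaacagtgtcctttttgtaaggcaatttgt

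In the other 3 pairs the capital marks a base gained or lost in the alignment, which taken alone breaks the frame. In Gm7135 (chr1:97348288-97348345, plus strand, exon 2), a copy of Slco6d1 (chr1:98423095-98423152, plus strand, exon 2, around codon 109), the capital marks an extra base of the pseudogene, with 45 of 61 columns identical. Other gaps in the window offset it, so that both stretches have 58 bases and the window as a whole shows no net shift of frame.
Gm7135: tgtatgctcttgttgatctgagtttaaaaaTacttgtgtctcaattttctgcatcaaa
Slco6d1: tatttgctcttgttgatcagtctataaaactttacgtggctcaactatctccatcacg
In 2700099C18Rik (chr17:94766861-94766921, plus strand, exon 9), a copy of Ndc80 (chr17:71504792-71504851, minus strand, exon 12, around codon 470), the capital again marks an extra base, with 57 of 61 columns identical.
2700099C18Rik: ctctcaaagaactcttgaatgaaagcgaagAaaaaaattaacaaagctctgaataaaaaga
Ndc80: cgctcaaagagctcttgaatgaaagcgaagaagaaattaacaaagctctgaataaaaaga
In Gm8798 (chr8:104899870-104899929, plus strand, exon 10), a copy of Ces2c (chr8:104853111-104853171, plus strand, exon 10, around codon 448), a base is missing, and the capital marks that base in Ces2c, with 58 of 61 columns identical.
Gm8798: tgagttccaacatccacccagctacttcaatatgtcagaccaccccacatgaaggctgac
Ces2c: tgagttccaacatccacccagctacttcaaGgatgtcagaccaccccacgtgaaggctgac

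Members were weakly transcribed as a group, and most of those that reached an appreciable level did so in testis. A mean of at least 1 FPKM in some tissue was reached by 53 of 182 members (29.1%). The highest mean was in testis for 28 of these 53, in ovary for 10, in brain for 5, in colon for 5, in heart for 4 and in cerebellum for 1. In 33 of the 53 only 1 tissue reached 1 FPKM, and 4 members reached it in all 6 tissues. By tissue, 36 members were at 1 FPKM or more in testis, 17 in colon, 17 in ovary, 16 in brain, 15 in cerebellum and 12 in heart.

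The share of all assigned reads that fell on members was 0.0478% to 0.0565% in the 3 testis libraries, above every library of the other tissues. It was 0.0186% to 0.0226% in brain, 0.0177% to 0.0314% in cerebellum, 0.0172% to 0.0356% in heart, 0.0208% to 0.0351% in colon and 0.0243% to 0.0350% in ovary. The upper ends in heart and cerebellum came from female heart replicate 3 and female cerebellum replicate 3. The other hearts were at most at 0.0189% and the other cerebellum libraries at most at 0.0206%. The reads on members were concentrated in few loci. Of 184017 counts on members, 1810014B01Rik alone held 71749 (39.0%), and the 5 members with most counts held 58.5%. In bulk tissue a difference in level between tissues cannot be split into fewer cells that transcribe a locus and less RNA per cell.

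**Figure D1:**
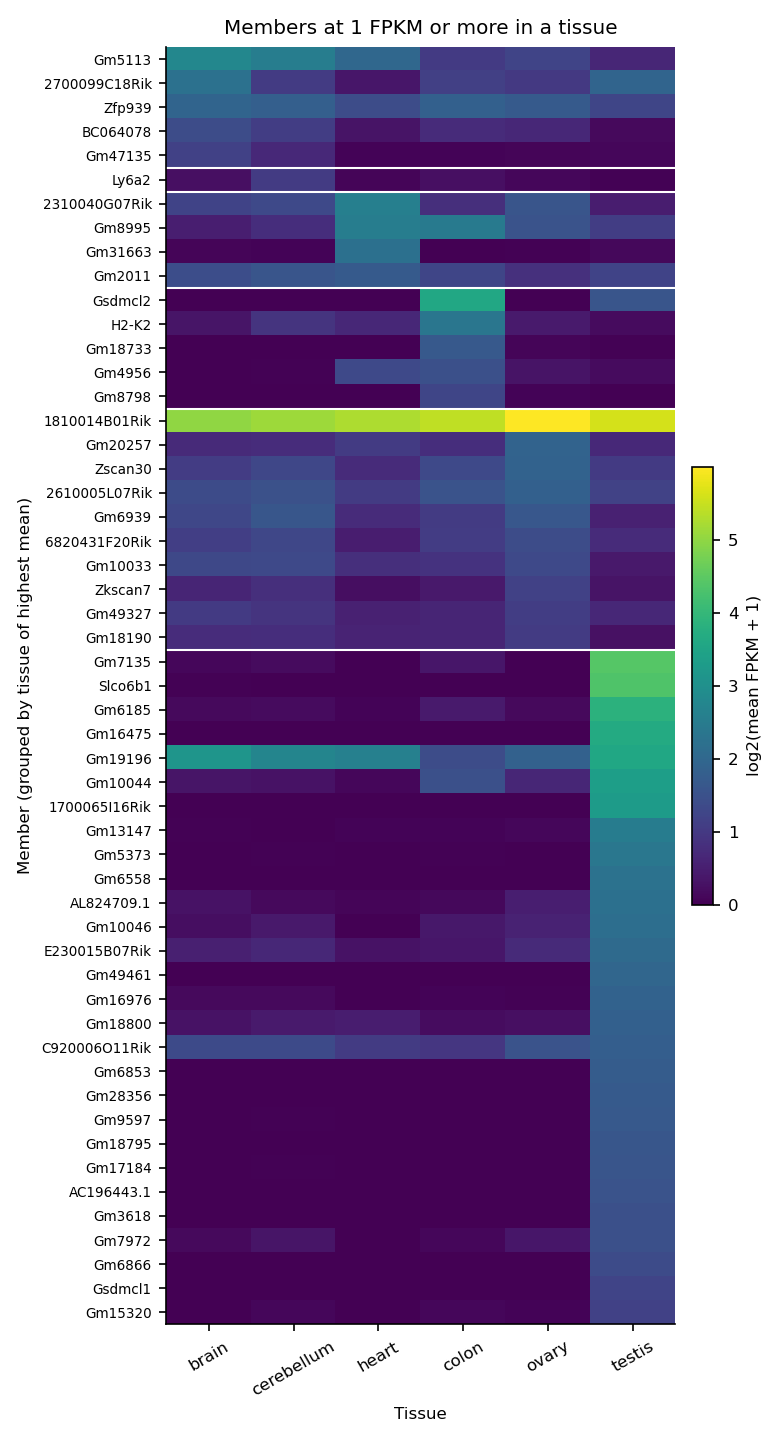
Mean level of the 53 members at 1 FPKM or more (rows) in 6 tissues (columns), coloured by log2(mean FPKM + 1). The testis column holds the highest mean of 28 members, and 1810014B01Rik is high in every tissue.

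Members were set beside other gene classes of the same libraries. The share with a mean of at least 1 FPKM was 29.1% of members, 27.7% of the transcribed unprocessed pseudogenes with a -ps symbol, 31.0% of transcribed processed pseudogenes, 41.8% of lncRNAs and 76.3% of protein-coding genes. It was 7.0% of the 2687 unprocessed pseudogenes without the transcribed biotype and 8.78% of the 9997 processed pseudogenes. Tissue specificity was measured by tau, which is 0 for a gene at the same level in every tissue and 1 for a gene found in a single tissue, over genes at 1 FPKM or more. Its median was 0.926 for members (quartiles 0.640 and 0.997), 0.939 for the -ps genes, 0.997 for the other unprocessed pseudogenes, 0.873 for transcribed and 0.832 for other processed pseudogenes, 0.859 for lncRNAs and 0.680 for protein-coding genes. Testis was the tissue of the highest mean for 52.8% of members, 52.2% of -ps genes, 57.4% of other unprocessed pseudogenes, 54.8% of transcribed and 36.6% of other processed pseudogenes, 46.5% of lncRNAs and 25% of protein-coding genes. These shares are descriptions and were not tested against each other.

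**Figure D2:**
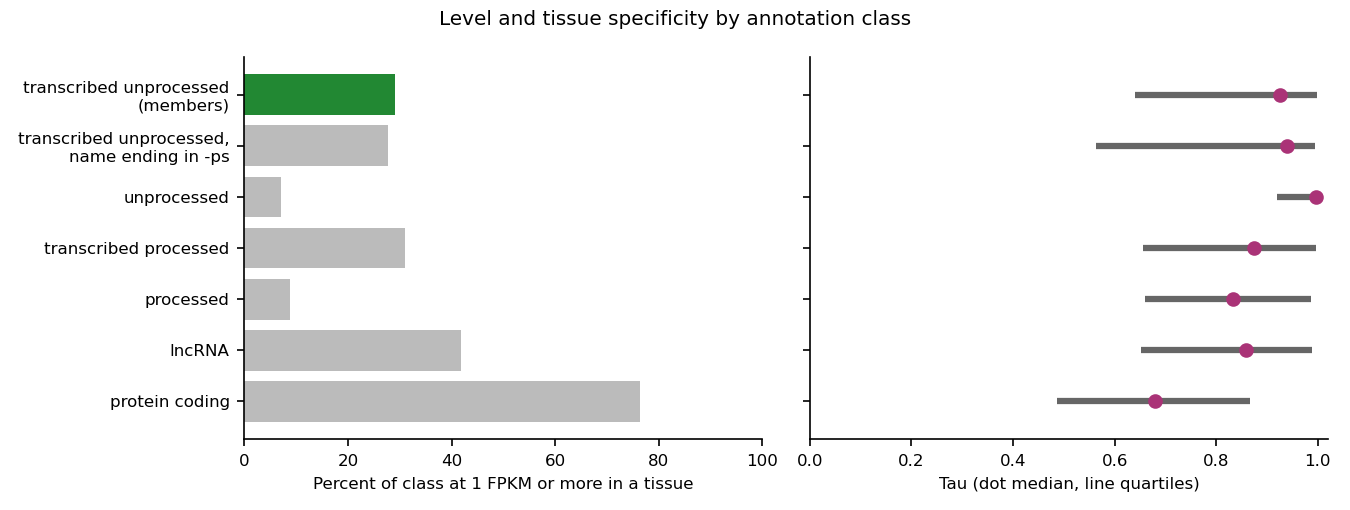
Left, percent of each gene class with a mean of at least 1 FPKM in some tissue; right, tau of the genes at that level (point, median; line, quartiles). Members (29.1%, median tau 0.926) sit beside the other transcribed pseudogene classes and below protein-coding genes (76.3%, 0.680) in the share reaching 1 FPKM.

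Each tissue was compared with the mean of the other 5 tissues on the log2 scale with the quasi-likelihood test of edgeR, P values were adjusted over all 29911 genes by the Benjamini-Hochberg method, the threshold was 0.05, and a member past it is called higher or lower below. Because the comparison is with a mean of 5 log2 values, a member can be called higher in a tissue that is not its highest. The 6 comparisons share the same libraries and are not independent of each other. In testis 50 of 94 tested members (53.2%) were higher and 7 (7.45%) lower, against 40.4% and 26.7% of all genes tested. In brain 20 were higher and 9 lower (21.3% and 9.57%, against 33.0% and 23.1%), and in cerebellum 15 and 8 (16% and 8.51%, against 30.8% and 22.0%). In heart 10 were higher and 20 lower (10.6% and 21.3%, against 22.1% and 29.6%), in colon 16 and 11 (17.0% and 11.7%, against 28.2% and 31.1%), and in ovary 10 and 6 (10.6% and 6.38%, against 22.4% and 19.8%). With DESeq2 in place of edgeR more members were lower than higher in 3 further tissues, with 17 higher and 20 lower in brain (all genes 29.8% and 33.3%), 13 and 18 in cerebellum (28.8% and 31.5%) and 8 and 13 in ovary (20.3% and 30.5%), and the balance of all genes turned in these tissues as well. These shares depend on which members could enter the test. Of the 94, 33 passed the filter on low counts only with the testis libraries, 8 only with those of colon, 5 of ovary, 3 of brain, 2 of cerebellum and 2 of heart, so that such a member was tested because of its reads in that tissue. Gm18273, Gm3912 and AL844494.3 failed without either of 2 tissues and are counted in both. All 33 that needed the testis libraries were among the 50 called higher there. Where the filter was applied to the libraries of the other 5 tissues, an alternative added after seeing the data, 17 of 61 members (27.9%) were higher and 7 (11.5%) lower in testis, against 33.1% and 29.1% of all genes, and 9 and 8 of 86 members were higher and lower in colon (10.5% and 9.3%, against 28.0% and 29.8%). For members that passed only with the libraries of the tissue compared, levels and ratios are given below as a description, without a test.

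The median log2 difference over the tested members was 1.35 in testis (all genes 0.10), and -0.17 (all genes -0.14) where the filter used the other 5 tissues. It was -0.42 in brain (all genes -0.10), -0.20 in cerebellum (-0.10), -1.56 in heart (-0.55), -0.87 in colon (-0.38) and -0.57 in ovary (-0.15). Counts of lower calls have a floor: where a group inside the tissue and a group outside it both had no read, the log2 difference is not defined and the test returns a P near 1, which touched 31 of the 94 members in brain, 33 in cerebellum, 38 in heart, 30 in colon, 28 in ovary and 4 in testis. For members absent from whole tissues the fitted log2 value also depends on the small count edgeR adds, and the ratio of the mean FPKM to that of the next highest tissue is given below beside it.

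**Figure D3:**
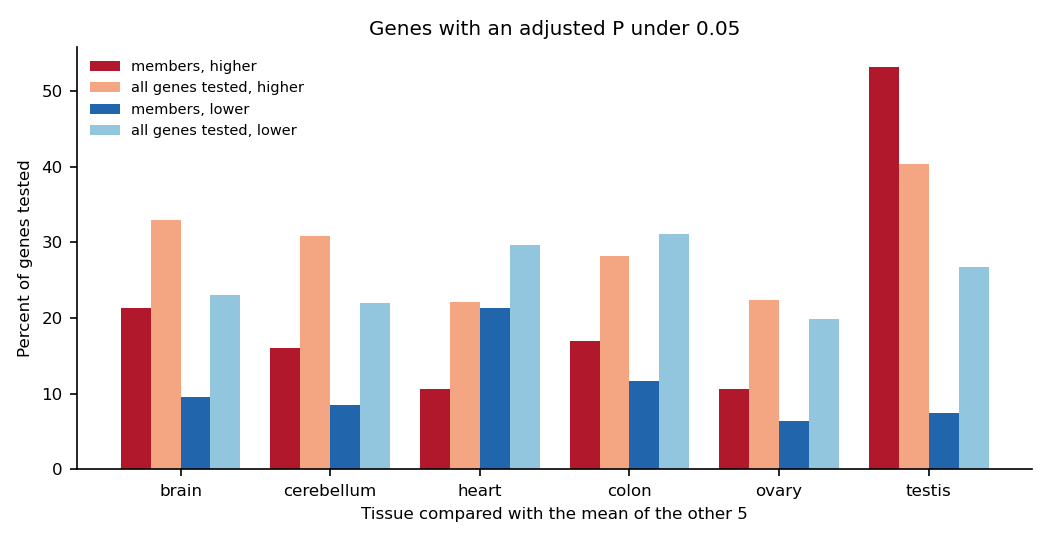
Percent of tested genes called higher (red) and lower (blue) in each tissue against the other 5. Dark bars are the 94 tested members and light bars all 29911 genes. The members' bar exceeds that of all genes for higher calls in testis (53.2% against 40.4%), where 33 of the 50 members called passed the filter only with the testis libraries; without such genes the shares are 27.9% and 33.1%.

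Among the 50 members higher in testis, 40 had all 3 testis libraries above every other library, 42.6% of the members tested, against 23.3% of all genes, and 31 of these 40 passed the filter only with the testis libraries, so nothing is read from this count. The highest testis levels among members found mainly there were those of 2 relatives of the Slco6 family, organic anion transporters whose coding genes are transcribed in testis. Slco6b1 (ENSMUSG00000045463, chr1:96906176-96997577, minus strand, 15 exons) is 69.2% identical to Slco6c1 over 1677 bases with 2 in-frame stops. Its testis libraries were at 17.7, 21.3 and 19.5 FPKM (mean 19.5 ± 1.8 SD, n = 3), while brain reached at most 0.0883, cerebellum 0.0296 and heart 0.0669 FPKM and colon and ovary had no read. The mean in testis was 876 times that in brain, the next tissue, and no other library came near the testis range.

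Gm7135 (ENSMUSG00000101348, chr1:97346475-97573015, plus strand, 14 exons), whose extra base is printed above, is 81.7% identical to Slco6d1. It was at 20.9, 22.2 and 18.2 FPKM in testis (mean 20.4 ± 2.06, n = 3) and 0.151 to 0.467 FPKM in colon (median 0.275), a ratio of 69.3, with no overlap between testis and any other library (log2 9.36 ± 0.29 SE, edgeR adjusted P = 2.21e-18). Among colon libraries the level was highest in female colon replicate 2 (0.467 FPKM, testis marker sum 0.869 FPKM) and next in female colon replicate 1 (0.415 FPKM, testis marker sum 21.7 FPKM), and the part of testis RNA in the colon level was not tested. The coding relatives were highest in the same tissue, with Slco6c1 at 70.9 FPKM (60.4 to 80.8) and Slco6d1 at 23.2 FPKM (22.0 to 24.7) in testis, so that Gm7135 ran at about the level of its closest coding gene and Slco6b1 below that of its own.

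Gm6185 (ENSMUSG00000102817, chr1:161176936-161237307, plus strand, 29 exons) gave no match to a coding sequence. Its testis libraries were at 14.2, 14.6 and 11.9 FPKM (mean 13.6 ± 1.48, n = 3) and its colon libraries at 0.14 to 0.545 FPKM, a ratio of 39.5 (log2 7.22 ± 0.22, edgeR adjusted P = 2.78e-20). All testis libraries were above all others.

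**Figure D4:**
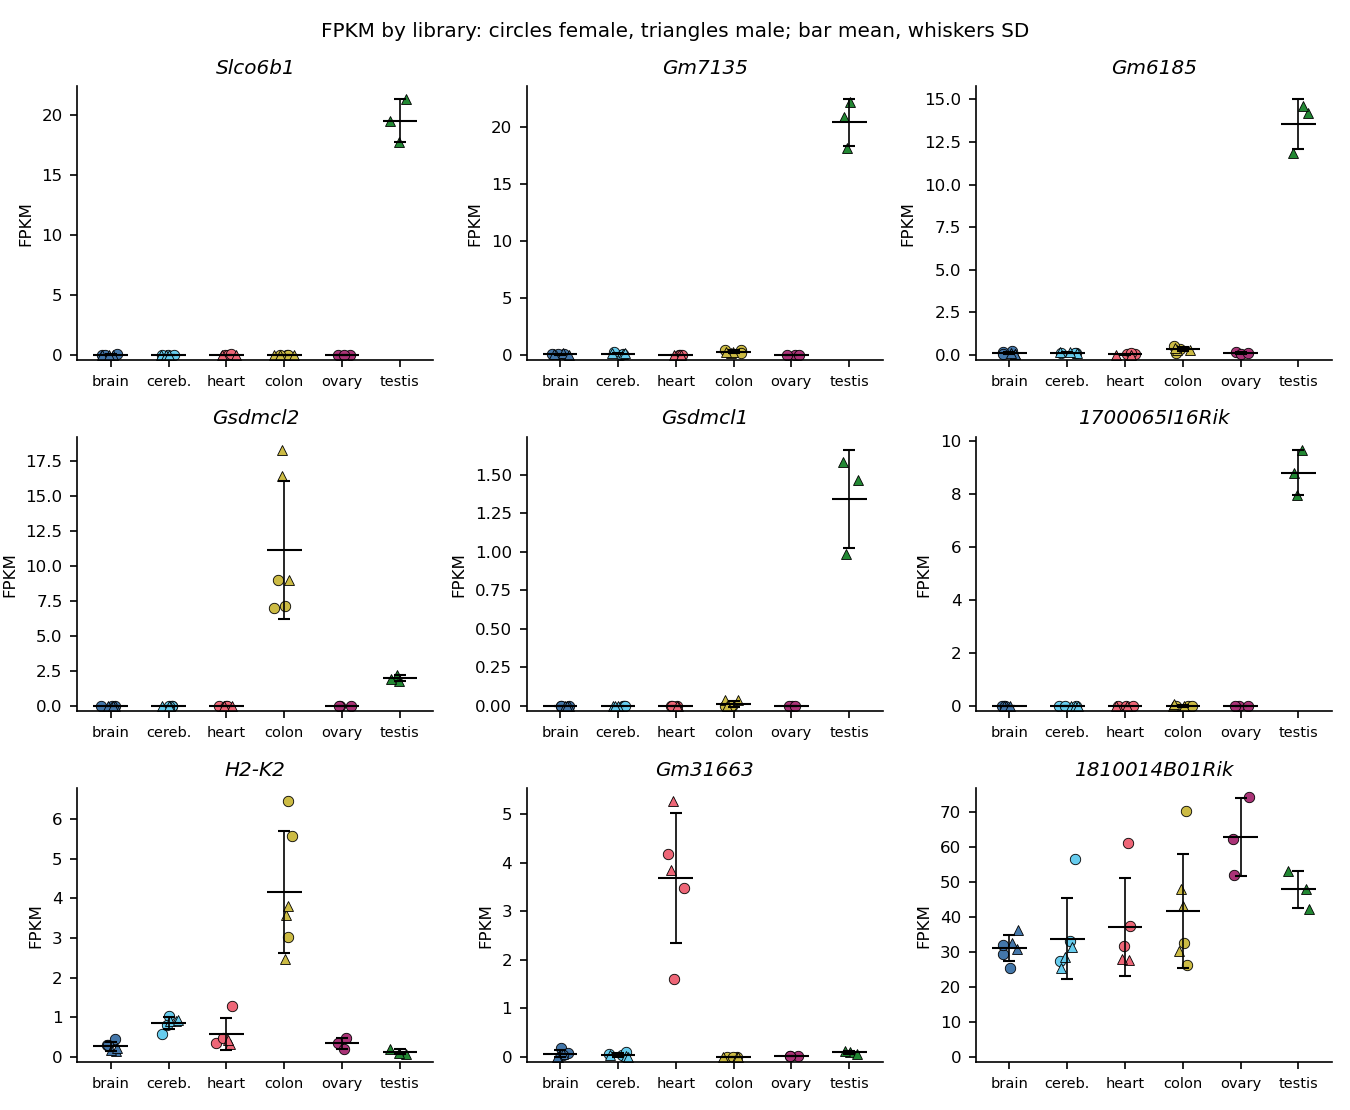
Level in FPKM of 9 members in every library (circles, female; triangles, male; bar, tissue mean; whiskers, SD), each panel with its own axis. Slco6b1, Gm7135 and Gm6185 have their high values in testis, Gsdmcl2 and H2-K2 are highest in colon, Gm31663 in heart, and 1810014B01Rik is above 25 FPKM in all 29 libraries.

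A group of 3 members had Ankrd26, a coding gene with ankyrin repeats, as the closest coding gene, at 71.5%, 68.7% and 67.5% identity for Gm16475, Gm10044 and Gm49461. Gm16475 (chr7:120553156-120556999, plus strand) was at 10.6, 13.7 and 11.1 FPKM in testis (mean 11.8 ± 1.67, n = 3), with 1 count in all other libraries together. Gm10044 (chr14:7744063-7791652, minus strand) was at 9.47, 10.5 and 7.88 FPKM in testis (mean 9.28 ± 1.3, n = 3) and 1.37 to 2.24 FPKM in colon (mean 1.77), where it was called higher as well (log2 5.05 ± 0.28 in testis, edgeR adjusted P = 1.01e-14; log2 1.76 in colon, and 1.97 without the 4 libraries that stood apart). Gm49461 (chr2:68566442-68574848, plus strand) was at 3.22, 2.70 and 2.84 FPKM in testis and had no read elsewhere, which puts it at least 565-fold higher in testis against 3 counts over the other libraries; it shares 623 exon bases with 4933409G03Rik, which was at 49.6 FPKM in testis. Ankrd26 itself was at 0.862 FPKM in testis, below its 3 relatives there, and at 3.06 FPKM in cerebellum and 2.79 FPKM in brain.

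Of the other members chosen for testis, Gm5373 (chr8:71824641-71857281, minus strand, 91.7% identical to Gm7697) was at 4.26, 5.03 and 3.25 FPKM in testis, 177 times the next tissue. Gm16976 (chr14:44858671-44974944, plus strand) was at 3.10, 2.85 and 2.12 FPKM in testis and 0.0815 to 0.145 FPKM in brain, a ratio of 23.4 (log2 6.65 ± 0.30, edgeR adjusted P = 3.75e-16). It overlaps exons of Ptgdr and of 3 other genes on the opposite strand, and the counting strand is not given in the sources used here. AL824709.1 was at 3.75, 5.02 and 2.20 FPKM in testis (ratio 8.99), and Gm10593 at 0.220, 0.308 and 0.292 FPKM (ratio 12.0). For each of these 4 members the testis libraries lay above all others. Other members, named after their values were seen, had reads in testis and none elsewhere, and were at least 960-fold (Gm6866), 201-fold (Gm8256), 198-fold (Gm49102) and 179-fold (Gm30162) higher in testis, against 3 counts over the other libraries.

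The Y chromosome carried 27 members, more than any other chromosome, and 16 of them had no read. The rest gathered 1240 counts in testis and 0 in every other library, male brain, cerebellum, heart and colon included. Of the 27, 2 were tested and reached 1 FPKM, chosen here after their values were seen. AC196443.1 was at 1.78, 2.29 and 1.62 FPKM in testis, at least 1883-fold higher than elsewhere, and Gm28356 at 2.24, 2.94 and 1.55 FPKM, at least 651-fold higher, both against 3 counts over the other libraries and with counting error only.

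The Gsdmc locus on chromosome 15 showed neighbouring pseudogenes with different tissues. Gasdermins are pore-forming proteins of epithelia. Gsdmcl2 (ENSMUSG00000093867, chr15:63880707-63890512, plus strand), 752 bases from Gsdmc4, was at 6.97, 7.15 and 9.0 FPKM in female colon and 8.99, 18.3 and 16.4 FPKM in male colon (mean 11.1 ± 4.93, n = 6), and at 2.24, 1.81 and 1.94 FPKM in testis. Every colon library was above every library of the other tissues, at 5.58 times the testis mean (log2 10.09 in colon, edgeR adjusted P = 1.8e-15), and testis, although lower than colon, was also called higher than the mean of the rest (log2 7.60), a call lost with the library code as a block (log2 7.01, edgeR adjusted P = 1.0).

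Gsdmcl1 (chr15:63847309-63855155, plus strand) and 1700065I16Rik (chr15:63817188-63821393, plus strand), named for lying beside Gsdmcl2, were testis transcripts. Gsdmcl1 was at 0.983, 1.58 and 1.47 FPKM in testis (ratio 97.8) and 1700065I16Rik at 9.66, 7.95 and 8.77 FPKM (ratio 701). None of the 3 aligned to a coding sequence over 200 bases under the settings used. Of the coding genes, Gsdmc4 was at 494 FPKM, Gsdmc2 at 283, Gsdmc3 at 19.9 and Gsdmc at 0.0961 FPKM in colon.

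In colon 7 of the 16 higher members had libraries that overlapped no other tissue (7.45% of the members tested, against 6.52% of all genes), and none of the 11 lower members had (against 1.91%). Of the 7, 5 passed the filter only with the colon libraries, and Gsdmcl2 and H2-K2 did not. Besides Gsdmcl2 these members came from the MHC region and from the carboxylesterase cluster. H2-K2 (chr17:33974659-33978827, minus strand) is 87.1% identical to H2-K1, a class I gene that presents peptides at the cell surface. It was at 3.03, 5.57 and 6.46 FPKM in female colon and 2.47, 3.57 and 3.81 FPKM in male colon (mean 4.15 ± 1.54, n = 6), against 0.592 to 1.04 in cerebellum, 0.328 to 1.29 in heart, 0.159 to 0.454 in brain, 0.208 to 0.469 in ovary and 0.0821 to 0.209 FPKM in testis (log2 3.39 ± 0.19 in colon, edgeR adjusted P = 3.99e-14). It was called lower in testis (log2 -2.06), ovary (-1.24) and brain (-1.23). H2-K1 was at 346 FPKM in colon (251 to 463), and reads of near-identical stretches cannot be assigned with certainty between them.

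Gm18733 (chr17:35278176-35279414, minus strand), whose nearest coding gene is H2-D1 and whose closest coding sequence is Vps52 at 90.2% identity, was at 0.96 to 3.72 FPKM in colon (median 2.16), 40.0 times the next tissue. Gm10499 (chr17:36141758-36145923, minus strand, 90.3% identical to the class I gene Gm8909), picked after its values were seen, was at 0.501 to 1.36 FPKM in colon, and Gm8909 was at 11.4 FPKM there. In both the colon libraries lay above all others. Without the 4 libraries that stood apart the colon differences were log2 10.05 for Gsdmcl2 and 3.46 for H2-K2, and both remained called.

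Carboxylesterases of the Ces2 family cleave esters of drugs and lipids in gut and liver. Gm8798 (chr8:104886862-104902787, plus strand), 93.4% identical to Ces2c and lacking the base shown above, was at 1.17, 0.979 and 1.19 FPKM in female colon and 1.89, 2.04 and 0.968 FPKM in male colon (mean 1.38 ± 0.472, n = 6), 34.5 times the next tissue and with no overlap. Its relatives Gm6831 (88.4% identical to Ces2c, mean 0.152 FPKM, 25 counts) and Gm5159 (79.2% identical to Ces2b, mean 0.211 FPKM, 36 counts), named for belonging to the same family, also had most of their reads in colon, but Gm5159 falls below the filter without female colon replicate 1 or male colon replicate 3, and Gm6831 without female colon replicate 1 or male colon replicate 2. The coding genes were far higher in colon, with Ces2c at 399 FPKM, Ces2e at 225, Ces2a at 197 and Ces2b at 5.81. Of the 7 members related to conjugating enzymes and esterases, 5 were tested and 4 were called higher in colon, where 28.2% of all genes were, but Gm8798, Gm6831 and Gm5159 passed the filter only with the colon libraries. The fourth, Gm4956, a relative of the glutathione transferase Gsta4 at 74.2% identity, was at 0.437 to 3.72 FPKM in colon and 0.458 to 2.51 FPKM in heart, called higher in both (edgeR adjusted P = 3.25e-08 and 5.98e-09), with no read in brain. Without the 4 libraries that stood apart the differences of Gm4956 were log2 4.51 in colon and 4.88 in heart, against 4.11 and 4.71 with them.

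In heart 1 member was higher with no overlap (1.06% of the members tested, against 3.43% of all genes) and 1 was lower with no overlap (against 2.86%). Gm31663 (chr7:92979876-93006513, plus strand) is 71.2% identical to Prcp, a lysosomal carboxypeptidase whose gene lies 45869 bases away on the same strand. It was at 4.17, 3.48 and 1.61 FPKM in female heart and 3.85 and 5.27 FPKM in male heart (mean 3.68 ± 1.34, n = 5) and at most 0.192 FPKM in any other library, a ratio of 38.7. It passed the filter only with the heart libraries. The lowest heart value came from female heart replicate 3, the library that stood apart, and was still above every non-heart library. Prcp itself was at 6.06 FPKM in heart and 17.9 FPKM in colon.

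2310040G07Rik (chr5:76928372-76947758, plus strand), which lies within Ppat, was at 4.36, 6.46 and 1.97 FPKM in female heart and 7.46 and 4.93 FPKM in male heart (mean 5.04 ± 2.11, n = 5). The next tissue was ovary at 1.99 FPKM, and heart was higher (log2 2.93 ± 0.27, edgeR adjusted P = 5.83e-10) and testis lower (log2 -1.89). Without the libraries that stood apart the heart difference was log2 3.11. Gm8995 (chr7:106504239-106511671, minus strand, 1 exon of 7433 bases), picked after its values were seen, is 91.8% identical over 7275 bases to Gvin1, a very large interferon-inducible GTPase gene that is listed at 0 in every library. It was at 2.27, 3.47 and 12.7 FPKM in female heart and 2.92 and 2.98 FPKM in male heart, and at 2.91 to 7.90 FPKM in colon (mean 4.57) and 0.314 to 0.577 FPKM in brain. Its high value was in female heart replicate 3, and the heart difference was log2 2.20 ± 0.19 with that library and 1.88 without it (edgeR adjusted P = 3.07e-10 with it). In that library the summed B and plasma cell markers were 263.9 FPKM, and in male colon replicate 1, the highest colon library for Gm8995, they were 269.9 FPKM, and their part in the result was not tested.

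2700099C18Rik (chr17:94750100-94775132, plus strand), a copy of the kinetochore gene Ndc80 at 92.5% identity, was the member lower in heart with no overlap. It was at 0.207, 0.128 and 0.513 FPKM in female heart and 0.233 and 0.399 FPKM in male heart, 2.06 to 4.42 FPKM in brain (median 4.19), 0.676 to 1.38 FPKM in cerebellum and 3.27, 3.0 and 2.17 FPKM in testis (heart log2 -2.0 ± 0.24, edgeR adjusted P = 8.02e-08, and log2 -2.20 without the 4 libraries that stood apart; brain log2 1.90 ± 0.16, edgeR adjusted P = 8e-11). Ndc80 shared the testis level, at 3.37 FPKM, but was at 0.0929 FPKM in brain, where the pseudogene was highest. The start of 2700099C18Rik lies 65 bases from Mettl4, on the opposite strand.

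In ovary 1 member was higher with no overlap (1.06% of the members tested, against 8.31% of all genes) and 1 lower (against 0.445%). Nlrp4g (chr9:124348872-124356970, plus strand) is 92.6% identical to Nlrp4f, of a family of cytoplasmic sensors known from oocytes. It was at 0.242, 1.15 and 1.35 FPKM in ovary (mean 0.912 ± 0.589, n = 3) and at most 0.0567 FPKM elsewhere, a ratio of 45.6. It passed the filter only with the ovary libraries. The lowest ovary library, replicate 1, was far below the other 2, and still above every library of the other tissues. Its summed ovary markers were also the lowest, at 111 FPKM against 196 and 154 FPKM, and their part in the Nlrp4g level was not tested. Nlrp4f was at 1.77 FPKM in ovary (1.19 to 2.08) and 0.747 FPKM in testis. The other Nlrp4f relative with most reads in ovary, Gm47180, was at 0.101, 0.657 and 0.421 FPKM in ovary, and falls below the filter without ovary replicate 2 or 3. Gm2011 (chr3:40846820-40875388, plus strand), 98.9% identical to Abhd18 over 434 bases, was the lower member, at 0.767, 0.820 and 0.758 FPKM in ovary (mean 0.781 ± 0.0335, n = 3), 1.47 to 3.32 FPKM in heart and 1.09 to 2.39 FPKM in the other tissues (ovary log2 -1.62 ± 0.21, edgeR adjusted P = 5.39e-07).

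Genes with tandem C2H2 zinc fingers form the largest family of DNA-binding proteins in mammals, many of them repressors of transposons. Of 16 such members 3 had no read, 6 reached 1 FPKM and 9 were tested. Of the 9, 4 were higher in brain (all genes 33.0%), 3 higher in cerebellum (30.8%), 2 higher and 1 lower in ovary (22.4% and 19.8%), 1 higher and 2 lower in heart (22.1% and 29.6%), 2 lower in colon (31.1%), and 2 higher and 3 lower in testis (40.4% and 26.7%). Zfp264 passed the filter only with the testis libraries, Gm18273 only with those of testis and brain, and Gm3912 only with those of ovary and colon. Gm5113 (chr7:30169875-30182324, plus strand), 152 bases from Zfp146 on the opposite strand, was at 5.18 to 6.45 FPKM in brain (median 5.97), 4.24 to 5.30 in cerebellum, 2.58 to 3.21 in heart, 0.793 to 1.33 in colon, 1.23, 1.56 and 1.26 FPKM in ovary and 0.608, 0.499 and 0.581 FPKM in testis. Testis lay below every other library (log2 -1.96 ± 0.19, edgeR adjusted P = 6.85e-10), and brain was 10.5 times testis (brain log2 1.87 ± 0.11, edgeR adjusted P = 2.99e-14), with brain and cerebellum overlapping.

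Gm10033 (chr8:69366510-69395539, minus strand), 77.9% identical to Zfp930, was at 0.345, 0.348 and 0.280 FPKM in testis and 0.437 to 3.45 FPKM in all other libraries (log2 -1.54 ± 0.39, edgeR adjusted P = 0.00101), again without overlap. In cerebellum it was called higher (log2 0.66, edgeR adjusted P = 0.0248), but without female cerebellum replicate 3 the difference was log2 0.16 (edgeR adjusted P = 0.635), and the call was also lost without male cerebellum replicate 3 (log2 0.58) or male testis replicate 2 (log2 0.55). Gm5113 and Gm10033 were the 2 members lower in testis without overlap (2.13% of the members tested, against 7.5% of all genes). Zfp939 (chr7:39449518-39477413, plus strand), 68.6% identical to Zfp810, had a tau of 0.257, with means from 1.40 FPKM in testis (1.13 to 1.58) to 2.79 FPKM in brain (1.97 to 3.72).

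Of the members at 1 FPKM or more in all tissues, 1810014B01Rik (ENSMUSG00000097412, chr10:86685525-86694806, plus strand) was the most abundant of all members. It was at 25.3 to 36.2 FPKM in brain, 25.5 to 56.8 in cerebellum, 27.7 to 61.1 in heart, 26.2 to 70.4 in colon, 74.4, 52.1 and 62.4 FPKM in ovary and 53.2, 48.2 and 42.5 FPKM in testis, with the tissues overlapping. It shares 415 exon bases, on the opposite strand, with Hsp90b1, an abundant chaperone gene of the endoplasmic reticulum at 70.4 to 155 FPKM in the 6 tissues, and without a stated counting strand the reads of the shared bases cannot be assigned to either gene. The testis call (log2 0.55, edgeR adjusted P = 0.0092) was lost without male testis replicate 1 (log2 0.48, edgeR adjusted P = 0.0628).

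Gm19196 (chr12:21543307-21554521, plus strand), 91.9% identical to Taf1b, a factor of RNA polymerase I, was at 9.53, 12.6 and 10.9 FPKM in testis (mean 11.0 ± 1.51, n = 3), 6.76 to 9.17 in brain, 4.63 to 6.98 in cerebellum, 2.62 to 8.53 in heart, 2.21 to 2.95 in ovary and 0.602 to 2.91 FPKM in colon. It was higher in testis (log2 1.75 ± 0.26, edgeR adjusted P = 1.26e-06) and lower in colon (log2 -1.95, and -1.45 without the 4 libraries that stood apart). Its higher call in heart (log2 0.63, edgeR adjusted P = 0.0334) was lost without female heart replicate 1 (log2 0.31) and without male heart replicate 2 (log2 0.34). The Cdh11-like members 2610005L07Rik (chr8:20385782-20424814, minus strand, 93.2% identical) and 6820431F20Rik (chr8:20262613-20297432, minus strand, 91.1%) lie next to each other. By mean both were lowest in heart and highest in ovary, with 1.06 FPKM in heart to 2.58 FPKM in ovary for the first and 0.387 FPKM in heart to 1.61 FPKM in ovary for the other. Cdh11, a cell adhesion gene, was also highest in ovary, at 54.7 FPKM, and lowest in testis, at 2.92 FPKM. The cerebellum call of 6820431F20Rik (log2 0.55) was lost without female cerebellum replicate 3 (log2 0.36, edgeR adjusted P = 0.0702).

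In brain and cerebellum no called member had all its libraries above or below those of the other tissues (0 of 94, against 4.93% and 2.69% of all genes higher and 0.629% and 0.204% lower). The members next named were chosen after their values were seen. Gm47135, which overlaps Mir138-1, was at 0.526 to 2.08 FPKM in brain (mean 1.23) and 0.605 FPKM on average in cerebellum (brain log2 4.09, edgeR adjusted P = 4.43e-08). AW822252, on the X chromosome, was at 0.153 to 0.428 FPKM in brain and 0.242 FPKM on average in cerebellum (brain log2 3.07, edgeR adjusted P = 5.85e-08). In both, brain and cerebellum libraries overlapped. Ly6a2, related to the surface antigen gene Ly6a, was at 0.0977 to 2.82 FPKM in cerebellum (mean 1.05), without whose libraries it fails the filter, while Ly6a was at 133 FPKM in colon.

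Levels of members and of their closest coding genes were set side by side for the 40 of the 53 members at 1 FPKM whose closest coding gene was counted. The tissue of the highest mean was the same in 19 of the 40, and the coding gene was the higher of each pair in 30. Slco6b1, Gm7135, H2-K2, Gm8798 and Gm19196 were highest in the tissue in which their relatives were, while Gm31663, 2700099C18Rik and the Ankrd26-like members did not. Of the 112 closest coding genes 88 were tested, and 44 of these (50%) were higher and 20 (22.7%) lower in testis, against 40.4% and 26.7% of all genes. In brain 16 were higher and 27 lower (18.2% and 30.7%, against 33.0% and 23.1%), and in cerebellum 16 and 30 (18.2% and 34.1%, against 30.8% and 22.0%), where more members were higher than lower with edgeR. In heart 24 were higher and 18 lower (27.3% and 20.5%, against 22.1% and 29.6%), in colon 32 and 22 (36.4% and 25%, against 28.2% and 31.1%) and in ovary 27 and 10 (30.7% and 11.4%, against 22.4% and 19.8%).

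**Figure D5:**
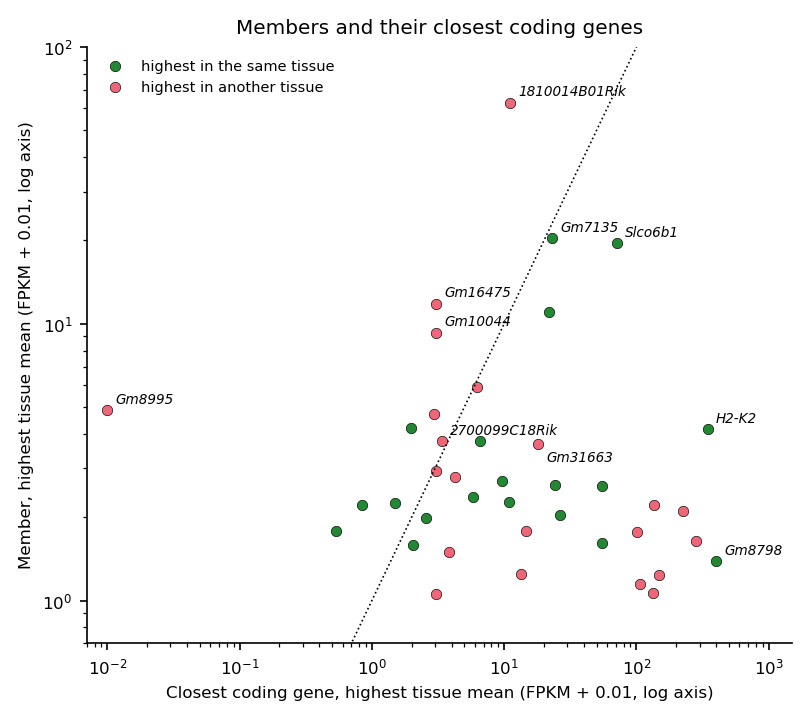
Highest tissue mean of each member against that of its closest coding gene, both as FPKM + 0.01 on log axes (green, same tissue; red, another tissue; line, equality). The coding gene is higher in 30 of the 40 pairs with a member at 1 FPKM or more, and the tissue is the same in 19.

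Identity to the closest coding gene was set beside the counts. At identities under 80%, 3 of 32 members had no read and 13 reached 1 FPKM. These counts were 3 and 9 of 35 at 80% to 90%, 2 and 9 of 33 at 90% to 95%, 16 and 8 of 44 at 95% to 99%, and 5 and 1 of 13 at 99% to 100%. Of the last 2 groups 20 and 6 members lie on the Y chromosome, and without it the counts were 3 and 7 of 24, and 2 and 1 of 7. Gm21617 and Gm20803, both on Y at 100% identity, had 0 counts, and Gm4349, 99.8% identical to Setdb1 over 418 bases, was at most at 0.288 FPKM in any library. Zfp783 had 6 counts in all and shares 6489 exon bases with Zfp956. The deposited counts retain uniquely mapped reads, and the part of this in the low counts was not tested.

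Between the sexes no member was called in any of the 4 tissues with both. The edgeR test called 0 of 94 members in brain, cerebellum, heart and colon, against 0.0368%, 0.0301%, 0.0635% and 0.324% of all genes, with 4, 7, 6 and 8 members at an unadjusted P under 0.05 (all genes 4.83%, 3.06%, 9.65% and 8.85%, which for the members were 4.26%, 7.45%, 6.38% and 8.51%). DESeq2 also called 0, with 4, 4, 6 and 6 members at an unadjusted P under 0.05. For Gsdmcl2, whose lowest male colon library (8.99 FPKM) lay just under the highest female one (9.0 FPKM), the male minus female log2 difference was 0.78 ± 0.31 (edgeR unadjusted P = 0.0231, adjusted P = 0.453). A test for sex differences that vary between the 4 tissues called 0 members with edgeR (0.0167% of all genes called), where 4 members and 6.77% of all genes had an unadjusted P under 0.05, and 1 with DESeq2, Gm5373 (adjusted P = 0.0466), whose level in these tissues was at most 0.06 FPKM.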

How the data were processed

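Total RNA of adult mouse tissues was depleted of ribosomal RNA and sequenced on an Illumina platform after strand-specific library preparation (dUTP). According to the submitters' processing notes, reads were checked with FastQC 0.11.8 and MultiQC 0.9, and HISAT2 2.0.5, featureCounts 1.6.3 and build mm10 are listed. The authors deposited raw counts of uniquely mapped reads per gene of an annotation that combines the ENSEMBL reference with their Iso-seq transcripts. The counting strand is not given in the sources used here. The 6 Iso-seq samples entered only through that annotation.

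Counts were tested with edgeR 4.0.16 (R 4.3.3, limma 3.58.1), with TMM scaling, filterByExpr by group, a mean per tissue and sex, and Benjamini-Hochberg adjustment over all genes tested (threshold 0.05). FPKM was computed from counts, exon length and total counts, with a mean of 1 FPKM as the expression threshold. DESeq2 1.42.0, other scalings, filters and left-out libraries were alternatives. Transcripts of GENCODE M21 were aligned to coding sequences with BLAST 2.17.0 (E value at most 1e-05, at least 200 aligned bases). Bounds against groups without reads use 3 counts and cover counting error only. The test was checked on simulated data whose changed genes had reads in every tissue, so members without reads in whole tissues were not covered.

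The members and gene lists were chosen with earlier results of these data known. Genes named are the 8 highest members, per tissue up to 4 higher and 2 lower called members without overlap, the least tissue-specific members at 1 FPKM everywhere, members with a full-length transcript by the study's Iso-seq list, and the 3 closest to a coding gene. Exon bases shared with another gene were found in 51 members (33 on the same strand, 18 on the opposite strand). In GENCODE M21, 166 members have the same biotype.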

Additional observations from a re-analysis of the deposited data

Results flagged for a closer look

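Among the named members, 48 sets of tissue libraries with a mean of at least 1 FPKM were examined for 1 library far from the rest of its tissue, and 6 were found. Ovary and testis, with 3 libraries each, were not examined. The limits used would flag about 1 in 20 sets under a normal spread, and the rate in these data was not measured. Zfp939 was at 4.36 FPKM in female colon replicate 1, with the next colon library at 2.66 FPKM. 2610005L07Rik was at 2.43 FPKM in female heart replicate 3, where the next heart library was at 0.967 FPKM, and Gm8995 was at 12.7 FPKM in the same library, with the next at 3.47 FPKM. Gm49327 was at 1.498 FPKM in female brain replicate 1 and at most 1.03 FPKM in the other brain libraries. In female cerebellum replicate 3, 1810014B01Rik was at 56.8 FPKM against 33.2 FPKM in the next cerebellum library, and Gm10033 at 3.45 FPKM against 1.53 FPKM. Female colon replicate 1 and female heart replicate 3 are among the libraries whose markers stood apart.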

How the results depend on the processing

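The counts of called members were 29 in brain, 23 in cerebellum, 30 in heart, 27 in colon, 16 in ovary and 57 in testis. With the filter on low counts applied to the other 5 tissues, an alternative chosen after seeing the data, testis had 24 of 61 members tested, and colon 17 of 86. All 33 calls lost in testis were of members no longer tested, and in colon 7 were, and 3 members still tested lost theirs. A fit with the library code as a block gave 37 in testis, where 29 members had a P over 0.9. Without a filter on low counts testis had 86 of 150 members tested. Without the members that share exon bases with another gene brain had 18 of 66 tested in place of 29 of 94, and with the -ps genes colon had 47 and ovary 27 of 131. DESeq2 gave 37, 31, 36, 33, 21 and 51 calls, and 1 in the interaction of sex and tissue. Leaving out single libraries gave 25 to 31 calls in brain, 17 to 25 in cerebellum, 23 to 32 in heart, 23 to 29 in colon, 11 to 17 in ovary, 55 to 62 in testis and 0 in each sex comparison and the interaction. Members at 1 FPKM were then 52 to 54, those highest in testis 28 to 29 and the median tau 0.913 to 0.942. Without the 4 libraries that stood apart, also chosen after seeing the data, calls were 30, 23, 28, 24, 18 and 63.

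Of 56 pairs of same-numbered libraries of a sex, 9 correlated above 0.1 (median r -0.001), against 21 of 112 pairs of other numbers (median -0.004). Female brain and cerebellum did so in all 3 numbers, and across the sexes the median of 11 pairs was 0.0949. Of 53 pairs with the same first digit of the library code (1-digit codes as 1 level) 12 correlated above 0.1 (median 0.0385), against 18 of 115 other pairs (median -0.0195). Since not every pair did, neither was taken to pair the samples, and whether libraries share animals is not stated. With the replicate number as a block the calls were 28, 23, 29, 26, 14 and 57.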

Other observations

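Some members shared a family or a closest coding gene, and their counts are set beside the 29.1% of all members that reached 1 FPKM. Of 5 members related to olfactory or vomeronasal receptors 1 had no read, none reached 1 FPKM and none was tested. The closest coding gene Gm21719 was shared by 16 members, all on the Y chromosome, of which 12 had no read. Hpcal1 was shared by 6 members and Zfp772 by 5, with 1 of each reaching 1 FPKM (Gm49327 at 1.14 and Gm18190 at 1.05 FPKM, both named after their values were seen and with reads in all 29 libraries), and Gm19965 by 5, none of which reached it.

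A promoter of 300 bases from RefSeq on GRCm38.p6 was found for 31 members. Their median GC content was 49.3%, against 52.7% of all 27025 promoters. Searched on both strands, TATAAA was found in 6 of them (19.4%, against 14.2% of all), GGGCGG in 8 (25.8%, against 35.9%), CCAAT in 12 (38.7%, against 37.9%) and TGACGTCA in 0 (against 1.88%). These are descriptions of the letters in the window and were not tested.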
